A study of Mus musculus with 12 samples.

Results

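The HoxB cluster is one of the 4 mammalian Hox clusters, and its 10 protein-coding genes (Hoxb1 to Hoxb9 and Hoxb13) all lie on the forward strand of mouse chromosome 11. A ChIP-seq summit was counted for the cluster when it lay within 100 kb of the body of any of these genes, which gave 1 window of 374 kb at chr11:96094316-96468256 (GRCm38, the mm10 build). Of the 16238 consensus β-catenin summits of control forelimb buds, 13 fell in this window, as did 23 of the 31466 consensus H3K27ac summits. In C59-treated forelimb buds, the window held 0 of 224 consensus β-catenin summits and 21 of 30166 consensus H3K27ac summits.

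All samples were forelimb buds of wild-type Swiss Albino mouse embryos, taken 6 h after an injection at E10.5. The injections were intraperitoneal and given to the pregnant females. Control females received the solvent DMSO in PBS. Treated females received C59, an inhibitor of porcupine, the enzyme that WNT ligands need in order to be secreted. Per the methods, C59 was diluted in PBS with methylcellulose, Tween and DMSO, so the vehicle was not the same in both groups. Chromatin was precipitated with an antibody against β-catenin or against histone H3 acetylated at lysine 27 (H3K27ac), with 2 replicates for each antibody and treatment. Each library was made from pooled whole buds, so the cell types of the bud cannot be told apart.

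Hox genes encode homeodomain transcription factors that give cells along the body axis and the limb their positional identity. Within a cluster, genes at the 3′ end (Hoxb1, Hoxb2) are switched on earlier and further forward in the embryo than genes at the 5′ end (Hoxb9, Hoxb13), and the HoxB genes of the middle of the cluster have been linked to where along the flank the forelimb forms. β-catenin is the nuclear effector of canonical WNT signalling and reaches DNA mainly through TCF/LEF factors, while H3K27ac marks active promoters and enhancers.

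The β-catenin summits with the highest fold enrichment were in the intron of Hoxb4 and in intergenic DNA 66.3 kb downstream of the Hoxb1 start site. The 200 bases around each are shown first because the results turn on them, together with a window from the Hoxb8 promoter, where the summit lay 166 bp upstream of the transcription start site (TSS). Sequences are from GRCm38, forward strand, and capitals mark the core bound by TCF/LEF factors, ATCAAAG or TTCAAAG on either strand.
Hoxb4 intron, chr11:96319294-96319493: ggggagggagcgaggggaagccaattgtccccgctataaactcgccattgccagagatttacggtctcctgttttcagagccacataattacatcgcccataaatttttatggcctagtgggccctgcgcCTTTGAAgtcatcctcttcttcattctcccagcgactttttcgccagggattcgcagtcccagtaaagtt
Downstream of Hoxb1, chr11:96431960-96432159: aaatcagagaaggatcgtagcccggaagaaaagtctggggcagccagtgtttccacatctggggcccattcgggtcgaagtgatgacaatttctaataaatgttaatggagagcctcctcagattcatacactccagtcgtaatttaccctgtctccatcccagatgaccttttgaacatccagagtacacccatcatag
Hoxb8 promoter, chr11:96281639-96281838: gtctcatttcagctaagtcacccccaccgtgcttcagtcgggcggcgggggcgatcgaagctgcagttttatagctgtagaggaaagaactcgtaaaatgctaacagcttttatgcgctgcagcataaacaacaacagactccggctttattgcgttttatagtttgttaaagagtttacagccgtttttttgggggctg
The Hoxb4 window holds 1 core, read on the reverse strand as TTCAAAG. Neither other window holds one.

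The remaining summits with a TCF/LEF core in their 200 bp lay in the Hoxb9 intron, upstream of Hoxb2, and in an intron of the long non-coding transcript Gm11529. These are shown with 20 bases on either side of the core, in the direction in which the core reads ATCAAAG or TTCAAAG.
Hoxb9 intron, chr11:96272033-96272079, forward: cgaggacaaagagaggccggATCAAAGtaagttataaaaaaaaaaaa
Upstream of Hoxb2, chr11:96350303-96350349, reverse: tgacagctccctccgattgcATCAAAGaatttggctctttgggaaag
Gm11529 intron, chr11:96462480-96462526, forward: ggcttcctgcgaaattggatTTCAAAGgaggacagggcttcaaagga
The Gm11529 window holds 2 cores, of which the first is in capitals. In all, 4 of 13 control windows of the cluster held a TCF/LEF core, against 28.6% of the 16193 control β-catenin windows on chromosomes 1 to 19, X and Y. The cores' centres lay between 45 bp before and 33 bp after the summit.

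Other cores were searched on both strands in the same windows. TGACAG, the core of MEIS factors, was in 1 of 13 windows, against 18.4% of all control windows, and its match lay in the window upstream of Hoxb2, at the first 6 bases of the sequence shown above. TGATNNAT, the core of HOX and PBX factors together, was in 2 of 13, against 17.5% of all. The palindromic homeobox core TAATTA was in 1 of 13, against 14.8% of all, in the Hoxb4 intron 12 bp before the summit. These shares rest on 13 windows, and their difference from all windows was not tested.

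β-catenin was compared first, to ask where it was bound along the cluster and whether that binding was still listed when WNT secretion was blocked. The window held 14 and 21 β-catenin summits in control replicates 1 and 2, and 0 and 1 in C59 replicates 1 and 2. Both control lists were thus above both C59 lists, with means of 17.5 ± 4.95 and 0.5 ± 0.707 (SD, n = 2). The difference of 17.0 gave p = 0.33 in a two-sided exact permutation test, the smallest value that 2 against 2 replicates allow. All 13 consensus control summits (95% Wilson interval 77.2 to 100%) lay outside every consensus C59 peak, and so did 98.9% of all control summits, so the share in the cluster is that of the genome as a whole.

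**Figure D1:**
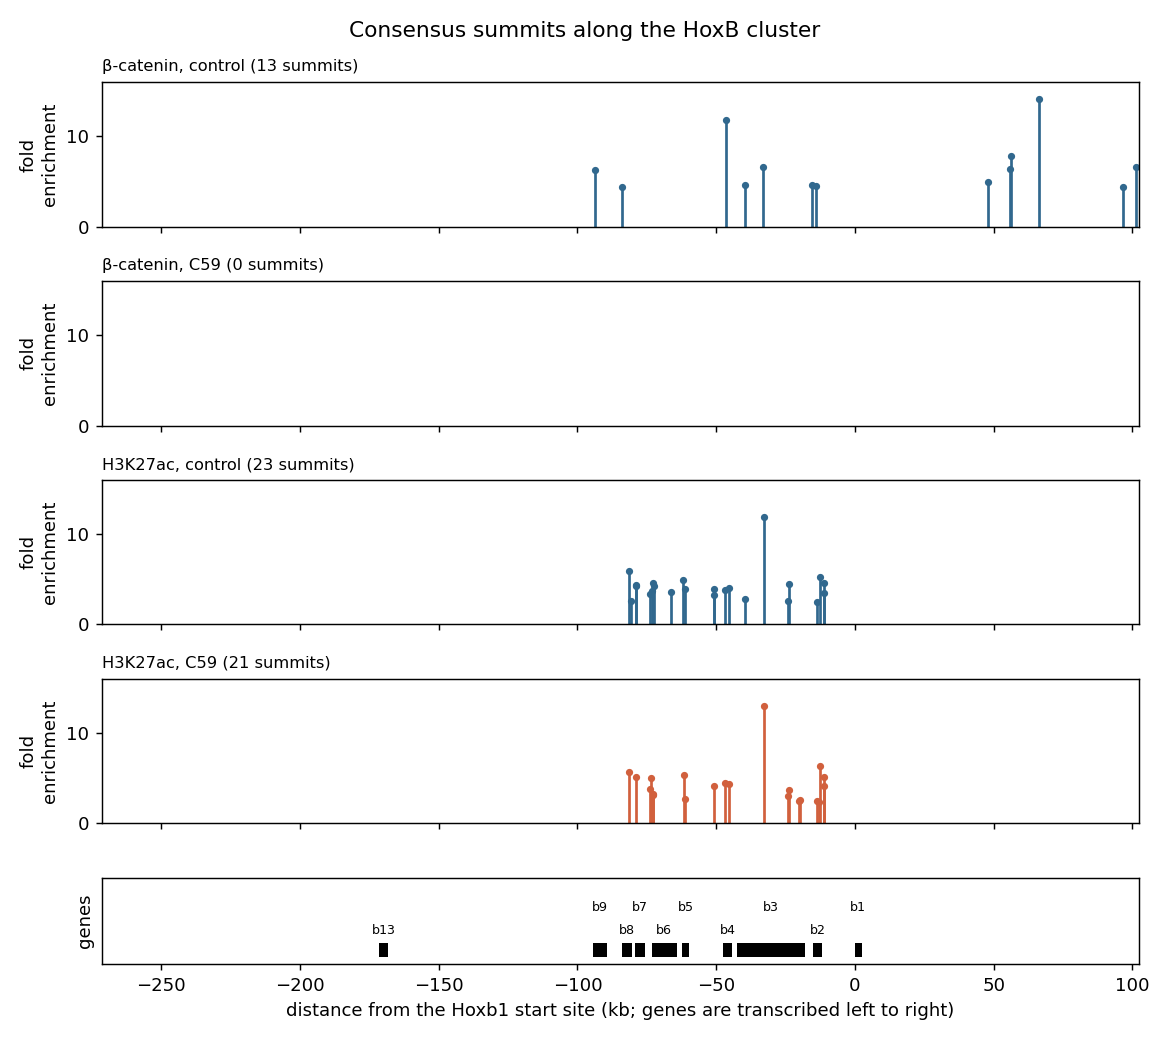
Consensus summits along the HoxB window, plotted by distance from the Hoxb1 start site in kb, with height as fold enrichment (black bars are gene bodies). None of the 13 β-catenin summits of control buds lies in a C59 consensus peak, and an unlisted site has no measured level. C59 replicate 2 alone listed a peak at the site 66.3 kb downstream of Hoxb1 (4.05-fold). H3K27ac summits keep to the stretch from Hoxb8 to just beyond Hoxb2 in both conditions.

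Fold enrichment is the fragment coverage at the summit over that expected from the same library's coverage around it, with 1 added to each. The Hoxb4 intron had 13.1-fold enrichment in control replicate 1, from 108 fragments, and 10.2-fold in control replicate 2, from 78 fragments. No peak overlapped it in C59 replicate 1 or 2. Hoxb4 is a mid-cluster gene, and its summit at 96319394 lay 1.13 kb inside the gene from its start site. By coverage this was the highest β-catenin summit of the window, 53.4 times the genome-wide background in the consensus list.

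The intergenic summit downstream of Hoxb1, at 96432060, had 12.5-fold enrichment in control replicate 1 (50 fragments) and 12.3-fold in control replicate 2 (44 fragments). It is the only site of the window listed after C59: replicate 2 had a summit at 96432048 with 4.05-fold enrichment from 11 fragments, and replicate 1 had none. The C59 value was thus below both control values. In the consensus list it was 14.1-fold, and 93.0% of all control β-catenin summits had a lower fold enrichment, against 87.5% for the Hoxb4 intron.

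The promoters came next. Hoxb9, the last of the tightly packed genes at the 5′ side, had 5.64- and 4.62-fold enrichment in control replicates 1 and 2 at a summit in its first kb. Hoxb8, its neighbour, had 4.45- and 3.86-fold at its promoter summit. Hoxb2, which patterns the hindbrain, had 4.14- and 4.10-fold at a summit in its coding sequence 0.268 kb from the start site. These 3 of 10 genes had a consensus control β-catenin summit less than 1 kb from a TSS, against 8.38% of all 21853 protein-coding genes (95% Wilson interval for the cluster 10.8 to 60.3%). None of the 3 was listed in a C59 replicate. Control replicate 2 alone also listed a summit at the promoters of Hoxb4 (2.59-fold) and Hoxb3 (3.52-fold), which made 5 of 10. Within 100 kb of the gene, all 10 had a control consensus summit, against 58.8% of all genes, and none had a C59 one, against 0.897% of all. Neighbours in the cluster share these summits, so the 10 genes are not independent observations.

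Of the other sites between Hoxb9 and Hoxb1, the intron of Hoxb3 held 2. The summit at 96332729 had 5.50- and 6.09-fold enrichment in control replicates 1 and 2, and the one at 96326122 had 5.16- and 3.28-fold. A further site 1.30 kb upstream of the Hoxb2 start site had 4.72- and 4.33-fold. Among these 3 sites the replicates lay furthest apart at 96326122, by 1.88, against 2.88 at the Hoxb4 summit.

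Downstream of Hoxb1, the 100 kb flank held 6 of the 13 consensus summits and no H3K27ac consensus summit in either condition, although C59 replicate 1 listed an H3K27ac summit of 3.36-fold there. Besides the site at 66.3 kb, these included a summit at 48.0 kb (3.89- and 4.54-fold in control replicates 1 and 2). A pair 191 bp apart at 55.9 and 56.1 kb lay under 1 peak region (6.93- and 8.16-fold at the region's highest summit). The others were a summit at 96.8 kb in the Gm11529 intron (4.18- and 4.78-fold) and a summit at 101 kb (5.83- and 7.53-fold). The latter was in an intron of Skap1, an adaptor gene of T cells. Of these 6, none overlapped a C59 peak apart from the site at 66.3 kb. Their distance to the nearest H3K27ac region of control buds on the chromosome ran from 58.8 to 112 kb. The flank of equal length before Hoxb13 held no summit of either antibody in any of the 12 lists.

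**Figure D2:**
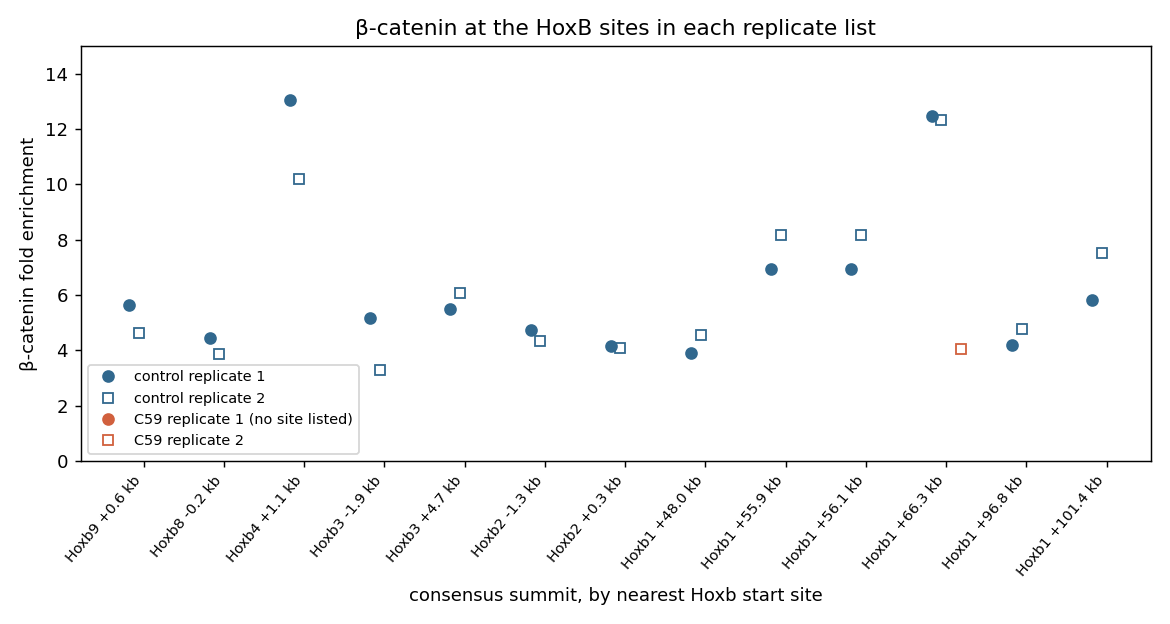
β-catenin fold enrichment at each of the 13 control consensus summits, named by the nearest Hoxb start site and the distance from it, in the 4 replicate lists (no mark means that the list has no overlapping peak). Control values run from 3.28 to 13.1, and the only C59 value is 4.05 at the site 66.3 kb downstream of Hoxb1. The pair at 55.9 and 56.1 kb lies under 1 peak region, and both are given the region's highest value in each list.

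Control replicate 2 listed sites that control replicate 1 did not. Besides those at the Hoxb3 and Hoxb4 promoters, they included 2 summits in the Hoxb6 gene (3.25- and 5.30-fold), 1 upstream of the Hoxb1 start site (3.91-fold) and 1 in the transcript Gm53 upstream of Hoxb9 (6.19-fold). Hoxb5, Hoxb7 and Hoxb13 had no β-catenin summit in their bodies or nearest to their start sites in any list. The lists do not share a threshold. The lowest −log10 p was 3.89 and 3.79 in control replicates 1 and 2, and 5.69 and 5.72 in the C59 replicates. The consensus lists lay further apart, at 3.69 in control buds and 8.92 after C59. At the genome-wide background these needed 11 and 20 fragments at a summit. With 5.69 applied to all replicate lists, an alternative chosen after seeing the data, the control replicates held 13 and 17 summits. A C59 replicate list needed 11 fragments at the background. The weakest control site had 11 and 13, so a weakly bound site would be near the limit of detection after C59.

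H3K27ac was compared to ask which Hoxb genes carried an active mark and whether it changed within 6 h. In control buds all 23 consensus summits lay between the body of Hoxb8 and 3.16 kb past the Hoxb2 start site. The promoters of Hoxb2, Hoxb4, Hoxb5, Hoxb6 and Hoxb7 had a summit less than 1 kb from a TSS, and those of Hoxb1, Hoxb3, Hoxb8, Hoxb9 and Hoxb13 had none. These 5 of 10 compare with 51.5% of all protein-coding genes in control buds. After C59 it was again 5 of 10, for these genes, against 50.5% of all.

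At the Hoxb7 promoter H3K27ac was 4.70- and 4.34-fold in control replicates 1 and 2, and 4.71- and 4.91-fold in C59 replicates 1 and 2. The control values were both below the C59 values, by a mean of 0.289. Coverage over the genome-wide background overlapped there, at 11.5 and 11.4 times in control replicates and 11.3 and 11.8 times after C59. At the Hoxb6 promoter the highest summits were 4.71- and 4.07-fold in control replicates and 5.65- and 4.69-fold after C59, which overlapped. These are not all 1 position: the 5.65-fold summit lay in site 3 (chr11:96291863-96292311) and the others in site 4 (chr11:96292518-96293724). Within site 4 the C59 values were 3.43- and 4.69-fold, which overlapped the control values. Its coverage over the genome-wide background was 8.18 and 7.63 times in control replicates and 5.67 and 6.39 times after C59, without overlap. At the Hoxb5 promoter they were 4.62- and 4.77-fold in control replicates and 4.37- and 5.89-fold after C59. The Hoxb5 groups overlapped as well.

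At the Hoxb4 promoter the values were 3.87- and 3.94-fold in control replicates and 3.72- and 4.60-fold after C59. At the Hoxb2 promoter they were 2.34- and 2.65-fold in control replicates and 2.66- and 2.25-fold after C59. Both pairs of groups overlapped. The smallest p over the 5 promoters was 0.33 in a two-sided exact permutation test, for Hoxb7, and every Benjamini-Hochberg adjusted value was 1.00.

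Single replicates placed a weak summit at other promoters. Control replicate 2 had one at Hoxb9 (3.60-fold) and C59 replicate 2 had one at Hoxb3 (2.19-fold), and neither was in a consensus list. The Hoxb8 gene carried H3K27ac in its coding sequence, at 4.68- and 6.31-fold in control replicates and 5.04- and 5.84-fold after C59. This summit lay 1.73 kb from the nearest of the 3 Hoxb8 start sites. The promoter β-catenin summit of Hoxb8 was nearest to another of them. The antisense transcripts Hoxb5os, Gm11536 and Hoxb3os had a consensus H3K27ac summit less than 1 kb from a start site in both conditions. ChIP-seq has no strand, so the signal there cannot be assigned to them or to the Hoxb gene they overlap.

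The highest fold enrichment in the cluster was in the Hoxb3 intron, at site 12, where a β-catenin summit of control buds lay 213 bp away. H3K27ac there was 12.3- and 9.79-fold in control replicates and 12.7- and 11.8-fold after C59. The groups overlapped, although no C59 list had a β-catenin peak at this site. The region runs over chr11:96332688-96333771.

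Hoxb2 ranked differently by the other measure. Within its gene body (site 15) H3K27ac was 5.52- and 4.88-fold in control replicates and 6.56- and 5.93-fold after C59, so that both C59 values were higher. Its coverage over the genome-wide background was 52.1 and 45.8 times in control replicates and 62.4 and 49.4 times after C59, which overlapped. At the Hoxb2 promoter summit the expected coverage taken from the surroundings was 9.35 times the background of the consensus library. Over the 23 control summits of the cluster its median was 2.75, against 1.96 over all control H3K27ac summits, so fold enrichment is reduced more in this dense stretch than elsewhere.

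**Figure D3:**
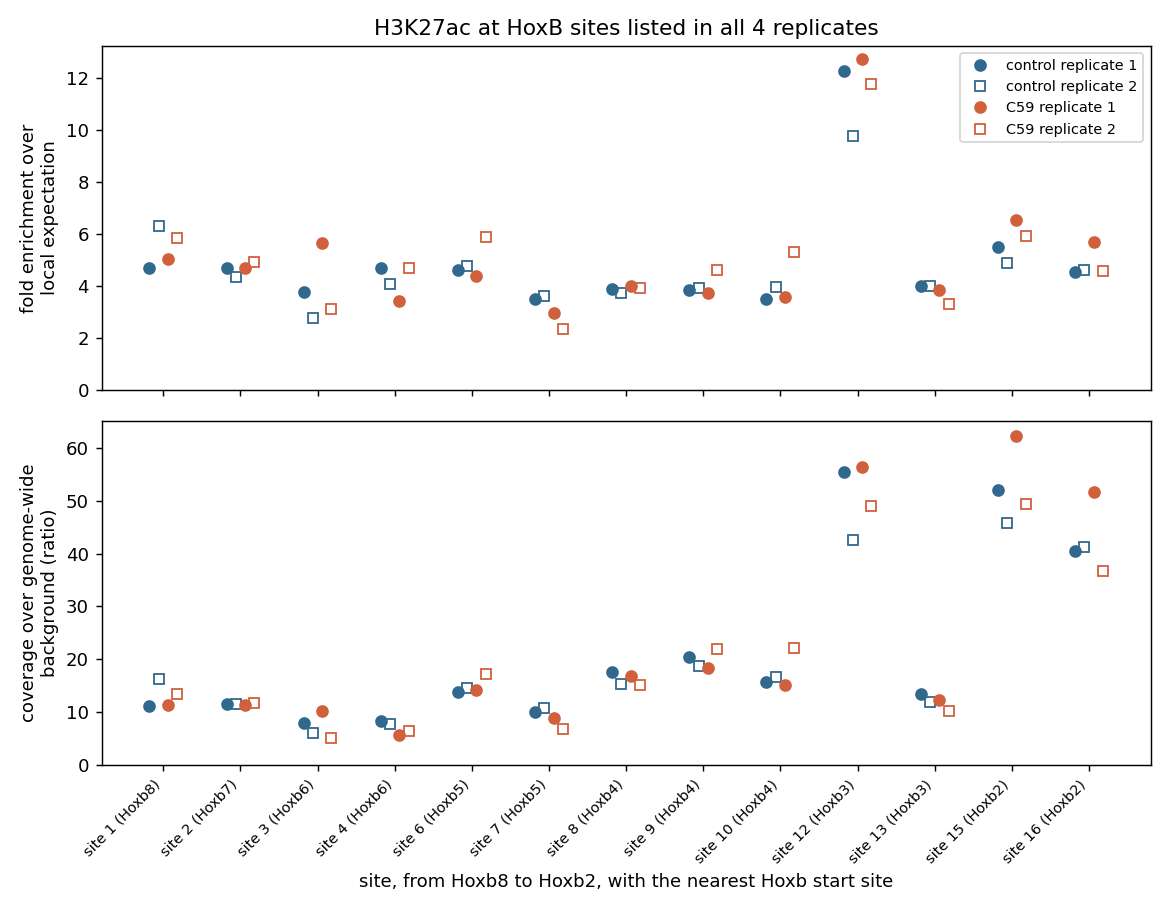
H3K27ac at the 13 sites of the HoxB window listed in all 4 replicates, as fold enrichment over the local expectation (upper panel) and as coverage over the genome-wide background of the library (lower panel), with 1 mark for each replicate. Site 12 in the Hoxb3 intron is highest by fold enrichment, and site 15 in Hoxb2 reaches a like coverage.

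Of the 13 sites listed in all 4 replicates, 4 had a higher mean fold enrichment in control buds and 9 in C59-treated buds. The median log2 ratio of control over C59 was -0.09, with a range from -0.42 to 0.42, and that over 17219 sites of the genome was about 0 (-0.0034). The groups did not overlap with control higher at 2 of 13 sites, against 19.4% of all sites, and with C59 higher at 3 of 13, against 20.9%. The 2 higher in control were site 7 at the 3′ part of Hoxb5 (3.51- and 3.63-fold against 2.97- and 2.35-fold) and site 13 in Hoxb3 (3.99- and 4.01-fold against 3.86- and 3.29-fold). By coverage over background the groups did not overlap at 2 sites (4 and 7), both higher in control, and at none with C59 higher. The share over all sites of the genome was not computed for coverage, so this count has no reference. Site 7 was one of them by either measure.

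In counts, the window held 22 and 26 H3K27ac summits in control replicates and 21 and 22 in C59 replicates. The lists overlapped at 22, and the difference of 2.50 gave p = 0.67 in a two-sided exact permutation test. The regions covered 9.31 and 9.67 kb in control replicates and 9.04 and 9.20 kb in C59 replicates. Both control lists covered more, by a mean of 0.371 kb (p = 0.33, two-sided exact permutation test). Of 23 control consensus summits 3 lay outside every C59 consensus peak, against 10.9% of all, and of 21 C59 consensus summits 2 lay outside every control consensus peak, against 9.12% of all.

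The 3 in the control consensus list alone were 2 in Hoxb6, at 96293427 (4.25-fold) and 96299319 (3.55-fold), and 1 in the Hoxb3 intron at 96325986 (2.76-fold). The summit at 96293427 lies in site 4, where both C59 replicates listed a summit at another position (3.43- and 4.69-fold). The other 2 sites were each listed in a single C59 replicate. Site 5, which holds 96299319, had 3.87- and 2.88-fold in control replicates and 4.38-fold in C59 replicate 1. Site 11, which holds 96325986, had 2.71-fold in either control replicate and 3.73-fold in C59 replicate 2. At both sites the only C59 value was above the control values, and the other C59 list had no summit. The 2 in the C59 consensus list alone were 201 bp apart in the coding sequence of Hoxb3 (2.45- and 2.53-fold). Their region, site 14, had 2.80- and 3.02-fold in C59 replicates and 2.204-fold in control replicate 1, with no summit in control replicate 2.

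The positions of both antibodies were then compared. Of the 13 control β-catenin summits, 2 lay inside a control H3K27ac region, both in Hoxb3 (95% Wilson interval 4.33 to 42.2%), which is near the 22.1% of all control β-catenin summits. With regions extended by 1 kb the count was 4. The Hoxb4 summit lay in a gap, 85 bp from the nearest H3K27ac region, with H3K27ac on both sides: site 9 had 3.87- and 3.94-fold in control replicates and site 10 had 3.52- and 3.97-fold. After C59 those sites had 3.72- and 4.60-fold and 3.56- and 5.31-fold, which overlapped the control values. The Hoxb2 coding summit was 47 bp from a region, and the Hoxb8 and Hoxb9 promoter summits were 2.42 and 12.1 kb away.

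Set beside the other clusters, each with 100 kb on either side, HoxB had the lowest density of H3K27ac summits in all 4 replicate lists. It held 5.88 and 6.95 per 100 kb in control replicates, HoxC held 8.23 and 8.55, HoxD held 10.8 and 10.4 and HoxA held 12.8 and 13.1. The windows differ in flanking sequence. HoxB has a stretch of 77.1 kb, from the start of Hoxb13 to the start of Hoxb9, that is empty of H3K27ac in each consensus list. That stretch counts towards the length of the HoxB window, so the ranking holds for the windows as drawn. From first to last gene, HoxB held 22 and 26 H3K27ac summits in control replicates, and HoxC held 16 and 18. After C59, HoxB held 20 and 22 and HoxC held 20 and 15. The densities were not tested. β-catenin in control buds was at 3.74 and 5.62 per 100 kb in HoxB, within the range from 3.48 (HoxC) to 7.86 (HoxA), and the C59 replicates had no summit in HoxA, HoxC or HoxD. Promoters with a consensus H3K27ac summit were 5 of 10 in HoxB, 10 of 11 in HoxA, 4 of 9 in HoxC and 8 of 9 in HoxD, with the same counts after C59.

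**Figure D4:**
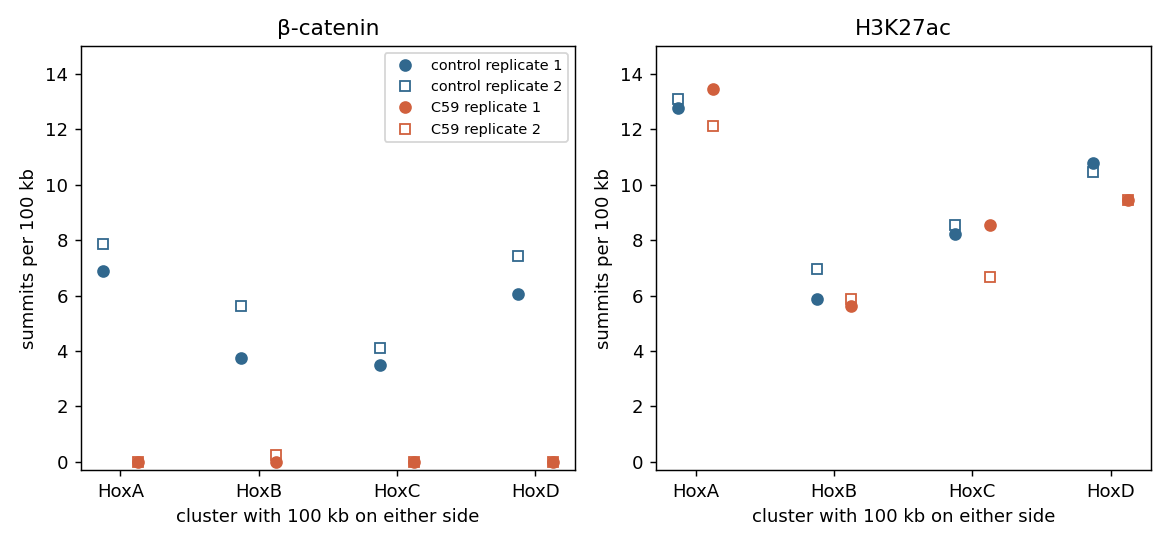
Summits per 100 kb in the windows of the 4 Hox clusters, with 1 mark for each replicate list of control and C59-treated buds. HoxB has the lowest H3K27ac density over its window, which includes the 77.1 kb from the start of Hoxb13 to the start of Hoxb9. Its single C59 β-catenin summit is the only one in any cluster.

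The labelled tissue was checked by promoter H3K27ac in consensus lists. All 8 limb mesenchyme markers and Tbx5, the forelimb selector gene, carried it in both conditions. The share of all protein-coding genes was 51.5% in control buds and 50.5% after C59. The lists of limb ectoderm (6 genes), neural tube (6), somite (4) and blood (4) had none in either, and of the endothelial list Pecam1 and Cdh5 had it only in the C59 list. Among hindlimb genes Tbx4 had it in both and Isl1 only in the C59 list, and among muscle precursor genes Lbx1 had it in both. These differences between consensus lists were not tested.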

How the data were processed

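Per the labels and the methods, the authors trimmed reads with Cutadapt (4.1 in the submitters' processing notes), mapped them to mm10 with Bowtie2 2.4.5 and called peaks with MACS2 2.2.7.1 without input. For each consensus list, duplicates were removed with Picard 2.27.4, replicates were sampled to equal depth and called together, and summits inside peaks of both were kept. Each deposited row gives the fold enrichment, a ratio of summit coverage to the local expectation, and the −log10 of the p-value and of the q-value, all made by the authors. The 4 input samples had no peak list here and were not used.

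The Hoxb members, gene lists and comparisons were chosen with earlier results of these data known. Rows were read on GRCm38 with GENCODE M21 in Python 3.11.15 with scipy 1.17.1. Distances are to the nearest start site of a protein-coding transcript of the gene named. Fold and −log10 p were solved together for the coverage in fragments and for the expectation; the lowest expectation of a library is its genome-wide background, at 2.69 to 3.17 fragments in H3K27ac and 1.57 to 1.83 in β-catenin replicates. This step, the intervals and the motif search were tested on simulated data. Intervals cover counting error only.

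Replicates were compared by exact permutation of 2 against 2 lists, and nothing but the number of each replicate ties control to treated samples. Promoters named are those of the 10 members; other genes of the window are named where a start site lies less than 1 kb from a control consensus summit, and the β-catenin summits are all consensus control summits and all C59 summits. The MEIS, HOX-PBX and homeobox cores, coverage over background at H3K27ac sites, and summits singled out beyond these were chosen after the data were seen. Consensus values are pooled and have no error.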

Additional observations from a re-analysis of the deposited data

How the results depend on the processing

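The control excess in β-catenin summits (17.0) held under every alternative run: 13.5 to 20.5 when 1 replicate was left out, 6.50 with summits joined to loci of 10 kb, 13 and 12 with flanks of 50 and 0 kb, 7.50 with fold enrichment of at least 5, 10 with −log10 q of at least 5, and 14.5 at the C59 threshold. The small H3K27ac differences did not all hold. With fold enrichment of at least 5 the summit difference became -3 and the covered length difference -1.75 kb, and counting peak regions made the former 0. Leaving out 1 replicate gave 0.5 to 4.50 summits and 0.188 to 0.555 kb. For promoter fold enrichment (control minus C59), the Hoxb2 difference of 0.036 ran from -0.17 (without C59 replicate 2) to 0.25, and was -0.12 without control replicate 2. Those of Hoxb4 (-0.26) and Hoxb5 (-0.44) ran from -0.70 to 0.18 and from -1.20 to 0.32, positive only without C59 replicate 2. The causes were not tested.

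Among counts, H3K27ac promoters within 500 bp were 4 in control buds and 3 after C59, and within 2500 bp they were 7 in both. The Hoxb5 consensus summit lay 0.448 kb from its start site in control buds and 0.5 kb after C59, at the 500 bp limit. Control β-catenin summits in a peak of either C59 replicate were 1, and windows with ATCAAAG alone were 2. β-catenin summits in H3K27ac regions were 4 with regions extended by 1 kb, and 2 became 1 with C59 regions.

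With the replicate number as a block, the differences stayed at 17.0 and 2.50 summits and 0.371 kb, each with p = 0.50 in an exact sign-flip permutation test, the smallest that 2 pairs allow. Labels give no shared litter or batch, and with 2 pairs the numbers were not taken to pair the samples. Deviations of same-numbered replicates correlated at 0.014 over 17219 H3K27ac sites, 0.51 over the 13 of the HoxB window and 0.0067 over 143 β-catenin sites. With 2 replicates, no test here could pass 0.05. Peak lists hold no value below their threshold, so unlisted sites have no measured level.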

Other observations

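Genes that act with or upstream of Hox genes were read in the same consensus lists. Of 9 genes for TALE homeodomain cofactors (Meis, Pbx and Pknox), 8 had promoter H3K27ac in control buds and 8 after C59, and Meis3 had none in either. The shares over all protein-coding genes were 51.5% in control buds and 50.5% after C59. All 9 had a control β-catenin summit within 100 kb of the gene, 44 summits in all, against 58.8% of all protein-coding genes, and none had one after C59, against 0.897%. Pbx3 was at 8.71-fold in control buds and 10.05-fold after C59, and Pknox2 at 8.69- and 6.83-fold, without replicate error in these pooled lists.

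Of 11 upstream regulators, 5 had promoter H3K27ac in both conditions, near the 51.5% of all protein-coding genes in control buds and 50.5% after C59. They were the retinoic acid receptors Rara, Rarb and Rarg, the retinoic acid-degrading enzyme Cyp26b1, and the ligand Gdf11. The caudal genes Cdx1, Cdx2 and Cdx4 had none, nor had Aldh1a2, Cyp26a1 or Cyp26c1. Control β-catenin summits lay within 100 kb of 9 of the 11 (58.8% of all protein-coding genes), and C59 summits of none (0.897% of all).

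Of 5 forelimb field genes, Tbx5, Fgf10, Hand2 and Gli3 had promoter H3K27ac in both conditions and a control β-catenin summit within 100 kb, and Shh had neither. Over all protein-coding genes, 51.5% had promoter H3K27ac in control buds and 50.5% after C59, and 58.8% had such a β-catenin summit. Hand2 had 1 C59 summit within 100 kb and 6 in control buds. Of the 29 other Hox genes, 22 had promoter H3K27ac in either condition, against 51.5% of all protein-coding genes in control buds and 50.5% after C59. All 29 had a control β-catenin summit within 100 kb (58.8% of all protein-coding genes) and none a C59 summit (0.897% of all). Neighbours in a cluster share these summits.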
